A study of Rattus norvegicus with 105 samples.

Results

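Copper handling genes carry copper into the cell, pass it to the enzymes that need it, and send it out again. The 10 genes described here are Slc31a1, Slc31a2, Atp7a, Atp7b, Atox1, Ccs, Sod1, Cox17, Sco1 and Commd1. They were taken by symbol from a named list, which was chosen with earlier results of these data known. Each symbol was on 1 probe set, so that 10 of the 22954 probe sets tested are covered. Copper enters cells through the membrane transporter CTR1 (gene Slc31a1) and is held by small chaperone proteins, since free copper ions damage cells. Separate chaperones serve the copper ATPases of the secretory pathway, the cytosolic superoxide dismutase and the assembly of cytochrome c oxidase in mitochondria. Much of copper balance is set by moving these proteins within the cell, whereas metallothioneins, which bind zinc and copper, are controlled at the level of transcription through metal response elements in their promoters.

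The study asked how metals embedded in muscle alter gene expression over time. Male Sprague-Dawley rats, about 30 d old when bought and acclimated for at least 2 weeks, had 4 metal cylinders (1 mm by 2 mm) implanted surgically, 2 in the gastrocnemius of each hind limb. The pellets were copper, aluminum, cobalt, depleted uranium, iron, nickel, lead, tungsten or, as the implanted sham control, tantalum, and muscle was taken 1, 3, 6 or 12 months later from 8 rats assigned to each metal and month. Every group, controls included, therefore carries surgery and a foreign body, and no muscle without a pellet was analysed here. Total RNA (250 ng, pooled from 2 to 3 animals) went onto each of 105 Clariom S Rat arrays, 3 per group in 35 groups. Nickel at 12 months was not analysed here. Since the arrays hold pools, p-values measure the spread between pools, and in whole muscle fewer cells of a type cannot be told apart from less RNA per cell. The age at surgery follows from purchase and acclimation only, so that months after implantation and age move together in every group.

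All values below are RMA log2 intensities. Array medians lay between 6.36 and 6.54, and each array's average correlation to the remaining arrays was at least 0.97. The lowest of these averages belonged to the cobalt arrays of 3 months. Muscle fibre markers were bright in every array, from 10.33 (Tnnt1) to 14.13 (Acta1), and the markers of skin, liver and heart had means between 4.15 (Krt1) and 6.91 (Ttr). All 10 copper handling genes lay above the array's own median of control probe sets on 105 of 105 arrays. The arrays numbered 1 at 6 and 12 months stood apart from those numbered 2 and 3 in several of these genes, above all Cox17, Sod1 and Commd1. What the number marks is not given in the sources used here, and since every group holds 1 array of each number, comparisons of metals within a month are balanced for it. Its size is given after the copper comparison, and results that rest on it are given with and without those arrays.

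The promoters of these genes were read for the core of the metal response element, the site of the zinc-sensing factor MTF1. The reason was that the metallothionein genes Mt1 and Mt2A, whose promoters carry such elements, rose with nickel and cobalt in the same arrays. The core was searched as TGCACNC and TGCGCNC on both strands, with each match counted, overlapping ones included, in the 250 bases before and 50 bases after the start of each gene (RefSeq, assembly GRCr8). All 10 genes had a sequence at the start given there, and whether that start is in use in muscle was not tested. Of 33469 such promoters, 24.2% held at least 1 match. The Mt1 promoter (chr19:10832926-10833225, minus strand) held 6 matches, a number reached by 0.0388% of promoters, and the Mt2A promoter held 4, reached by 0.439%. Of the copper handling genes, 5 held 1 match each and 5 held none, and none held more than 1. Atp7a was among the 5 without a match. Its window may lie within the gene, so that the lack of a match is not a result about its promoter. The Mt1 sequence is shown beside those of Slc31a1 (chr5:80830590-80830889, plus strand) and Sco1 (chr10:52243414-52243713, plus strand), the 2 genes that passed a test of any difference among the 35 groups in the fit without a replicate term. Capitals mark the matches, so that the last 2 sequences have none.
Mt1: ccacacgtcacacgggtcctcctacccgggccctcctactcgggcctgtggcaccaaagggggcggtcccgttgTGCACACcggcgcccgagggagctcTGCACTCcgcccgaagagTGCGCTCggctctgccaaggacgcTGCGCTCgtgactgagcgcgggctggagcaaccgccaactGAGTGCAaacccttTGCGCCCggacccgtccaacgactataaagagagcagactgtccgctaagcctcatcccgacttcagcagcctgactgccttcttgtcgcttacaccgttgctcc
Slc31a1: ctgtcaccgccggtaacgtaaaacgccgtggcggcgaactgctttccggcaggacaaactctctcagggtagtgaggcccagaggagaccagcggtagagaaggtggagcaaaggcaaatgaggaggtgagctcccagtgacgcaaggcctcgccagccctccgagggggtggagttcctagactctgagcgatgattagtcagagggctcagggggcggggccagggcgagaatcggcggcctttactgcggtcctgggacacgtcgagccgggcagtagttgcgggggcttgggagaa
Sco1: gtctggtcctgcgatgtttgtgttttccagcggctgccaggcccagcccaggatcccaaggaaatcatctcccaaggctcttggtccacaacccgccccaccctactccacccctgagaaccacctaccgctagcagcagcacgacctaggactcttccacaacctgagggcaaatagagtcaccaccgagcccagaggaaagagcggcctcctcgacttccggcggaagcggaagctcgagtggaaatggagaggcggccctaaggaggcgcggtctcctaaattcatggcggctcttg

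The single matches of the other genes are shown with 10 bases on each side, on the strand of the gene, to let them be compared with those of Mt1. The promoters are those of Atp7b (chr16:76654475-76654774, plus strand), Slc31a2 (chr5:80753368-80753667, plus strand), Ccs (chr1:211564211-211564510, minus strand), Cox17 (chr11:75911970-75912269, minus strand) and Commd1 (chr14:101185590-101185889, minus strand). A match is a run of letters and was not tested as a binding site.
Atp7b: tggtcccagcTGCACCCggttcgcagc
Slc31a2: cagagcagtcTGCACCCcggggctgtg
Ccs: gggccccagcGAGCGCAcgcgccaagg
Cox17: cccttttgtgTGCGCGCtccttaggct
Commd1: agcaagcttaGTGCGCAtccatctttc

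Copper pellets were compared with tantalum pellets of the same month. None of the 10 genes passed the test (limma, adjusted p below 0.05 over all probe sets) at 1, 3, 6 or 12 months, and none of the 40 differences had an unadjusted p below 0.05. Across all probe sets, copper passed for 0.322% at 1 month, 0.0436% at 3 months, 0% at 6 months and 0.00436% at 12 months, so that 0 of 10 lies near the background. An unadjusted p below 0.05 was found for 7.65% of all probe sets over the 4 comparisons. The differences of the 10 genes ran from -0.19 to 0.21 on the log2 scale, and the smallest adjusted p was 0.564. The 95% intervals reached from -0.80 to 0.57, which is 0.575-fold to 1.49-fold, with the low end set by Cox17. The SE was 0.12 to 0.32 depending on the gene. With replicate number as a block the intervals reached from -0.56 to 0.55, or 0.677-fold to 1.47-fold, and again none of the 40 passed.

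**Figure D1:**
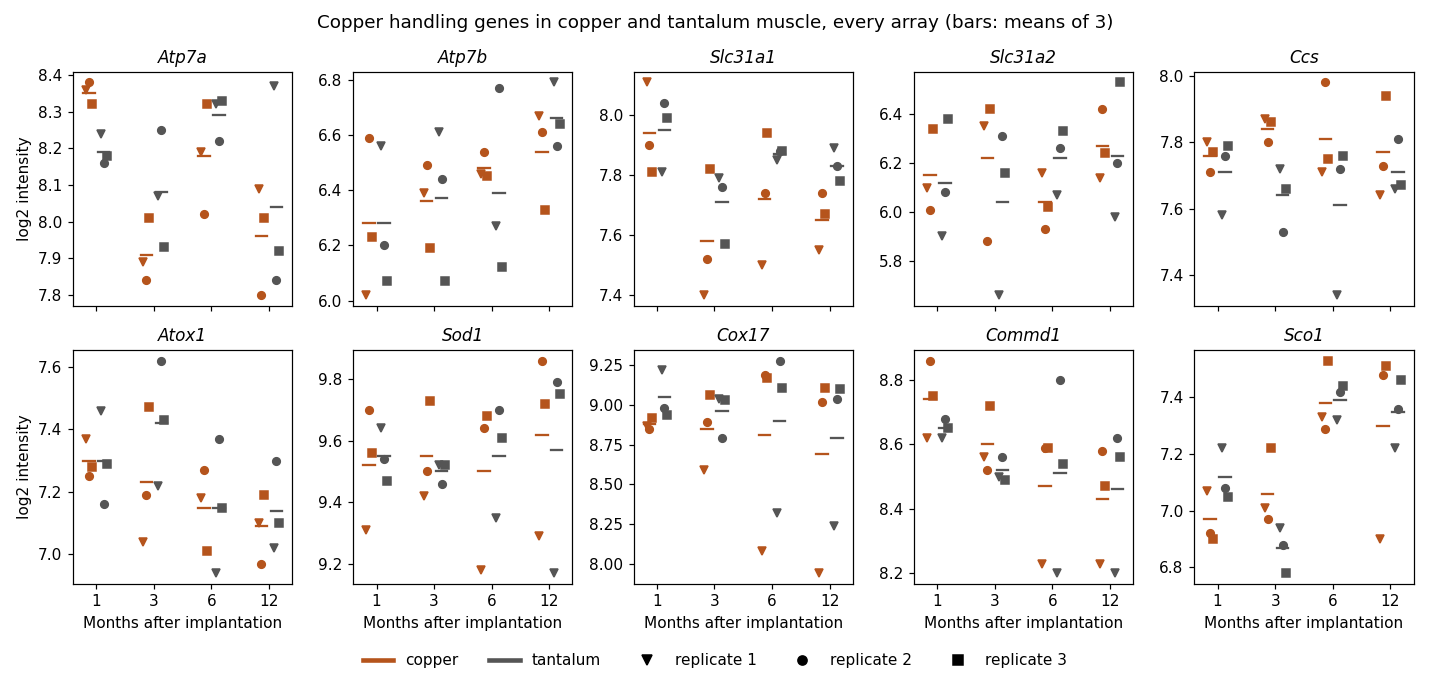
Log2 intensity (vertical axes, a different range for each gene) of the 10 genes on every copper and tantalum array at 1, 3, 6 and 12 months; bars are means of 3 arrays and the symbol gives the replicate number. The colours overlap in most panels and months, and the replicate 1 arrays of Cox17, Sod1 and Commd1 lie lowest in both metals at 6 and 12 months.

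Uptake came first. Slc31a1, the high-affinity copper importer, measured 8.11, 7.90 and 7.81 on the copper arrays of 1 month and 7.81, 8.04 and 7.99 on the tantalum arrays. At 12 months the copper arrays read 7.55, 7.74 and 7.67, all below the tantalum arrays at 7.89, 7.83 and 7.78. The groups overlapped at 1 month and were separate at 12 months, yet the 12-month difference of -0.18 ± 0.13 (SE) did not pass (adjusted p = 0.95). Its differences at 3 and 6 months were -0.13 ± 0.13 and -0.15 ± 0.13. Slc31a2, its paralogue that acts on copper held inside the cell, differed by 0.03, 0.18, -0.19 and 0.03 at 1, 3, 6 and 12 months, each with an SE of 0.20. The 3-month arrays of Slc31a2 spread widely, at 6.35, 5.88 and 6.42 with copper and 5.66, 6.31 and 6.16 with tantalum.

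Export is carried by 2 P-type ATPases. Atp7a, the one most tissues other than liver use and the gene mutated in Menkes disease, measured 8.36, 8.38 and 8.32 on the copper arrays of 1 month. The tantalum arrays of that month read 8.24, 8.16 and 8.18, all lower. Copper at 1 month had the highest mean of all 35 groups, 8.35 ± 0.03 (SD, n = 3), next to nickel at 1 month with 8.30. The difference of copper from tantalum, 0.16 ± 0.13, did not pass (adjusted p = 0.858). By 3 months the copper mean was 7.91 ± 0.09 (SD, n = 3), the second lowest of the 35 groups, and the difference from tantalum was -0.17 ± 0.13. The differences at 6 and 12 months were -0.12 and -0.08, so that the sign at 1 month stood alone. A test of change in the difference between months did not pass for Atp7a with copper (moderated F = 1.26, adjusted p = 0.912), and 0% of all probe sets passed that test. Atp7b, the liver's copper exporter and the Wilson disease gene, differed by 0.00, -0.01, 0.10 and -0.12 from tantalum at 1, 3, 6 and 12 months. Its copper and tantalum arrays overlapped in every month.

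The chaperones and their targets were as close to tantalum. Atox1, which hands copper to the ATPases, measured 7.37, 7.25 and 7.28 with copper and 7.46, 7.16 and 7.29 with tantalum at 1 month, a difference of 0.00 ± 0.15. Its furthest value was -0.19 ± 0.15 at 3 months, with overlapping arrays. Ccs, which loads copper into superoxide dismutase 1, was above tantalum by 0.05, 0.21, 0.21 and 0.06 in the 4 months. At 3 months its copper arrays (7.87, 7.80 and 7.86) all lay above the tantalum arrays (7.72, 7.53 and 7.66), and at 6 months the ranges overlapped, with 7.71, 7.98 and 7.75 against 7.34, 7.72 and 7.76. Over the months the mean difference of Ccs was 0.13 ± 0.06, with an unadjusted p of 0.0343 and an adjusted p of 0.343. For that mean, 0.0392% of all probe sets passed and 13.3% had an unadjusted p below 0.05. Sod1, the copper-zinc superoxide dismutase itself, differed by at most 0.06 in size in any month, with arrays that overlapped throughout.

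Of the genes that serve cytochrome c oxidase, Cox17 brings copper to the assembly site and Sco1 helps place it in a subunit of the enzyme. The copper arrays of Cox17 at 1 month, 8.87, 8.85 and 8.92, lay below those of tantalum, 9.22, 8.98 and 8.94, by -0.17 ± 0.32. The other 3 months gave -0.11, -0.09 and -0.10 with overlapping arrays. Sco1 measured 7.01, 6.97 and 7.22 with copper at 3 months and 6.94, 6.88 and 6.78 with tantalum, so that the groups were separate, and its difference of 0.20 ± 0.14 did not pass (adjusted p = 0.651). At 1 month the sign was the other way, -0.15 ± 0.14. Commd1, which takes part in endosomal sorting of the copper ATPases and whose loss causes copper storage in dogs, differed by 0.10, 0.08, -0.04 and -0.03. Groups without overlap were thus seen for 2 genes at 1 month, 2 at 3 months, 0 at 6 months and 1 at 12 months, against 13%, 17.8%, 12.4% and 9.67% of all probe sets.

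**Figure D2:**
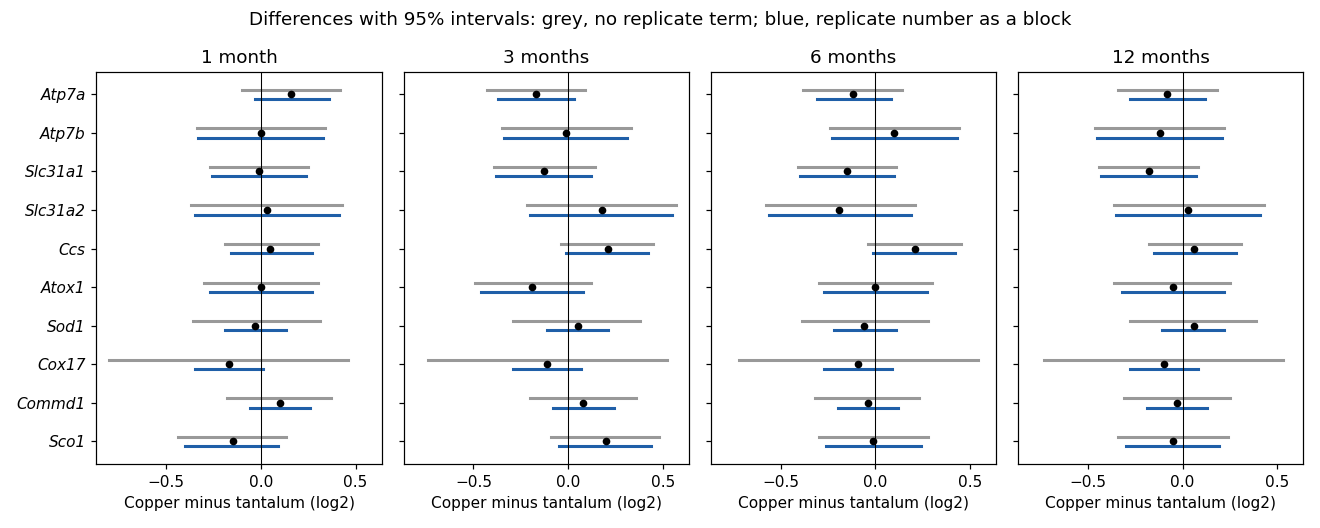
Copper minus tantalum (log2, horizontal axis) for each gene in each month, with 95% intervals from the fit without a replicate term (grey) and with replicate number as a block (blue). Every interval spans 0, and those of Cox17 are the widest without the block (SE 0.32) and shorter with it (SE 0.09).

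Markers of other cells were read on the same arrays. At 1 month the summed intensity of the 8 fibroblast and matrix markers ran from 15200 to 28400 with copper and from 11800 to 22200 with tantalum. Of these 8, 1 passed, where 0.322% of all probe sets did. For the 12 macrophage markers the sums ran from 3020 to 5340 and from 2300 to 5300, and 0 of 12 passed. No fibroblast or macrophage marker passed in the later months. The part of these cells in the values above was not tested.

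Copper was also compared with the mean of the other metals of the same month, tantalum left out. None of the 50 values passed, including the mean over months, and 0.343% of all probe sets did over these comparisons. Atp7a at 1 month was 0.24 ± 0.10 above the other metals, with an unadjusted p of 0.0191 and an adjusted p of 0.399. Atp7b at 1 month was -0.18 and Slc31a2 at 6 months -0.23, and neither had an unadjusted p below 0.05.

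The other 7 metals gave 270 differences from tantalum, and none passed, against 0.495% over all probe sets. An unadjusted p below 0.05 was found for 4 of them, or 1.48%, where all probe sets gave 7.74%. These were Atp7b with lead at 1 month (0.37 ± 0.17, adjusted p = 0.211), Slc31a1 with lead at 1 month (-0.27 ± 0.13, adjusted p = 0.238), Slc31a1 with iron at 6 months (-0.28 ± 0.13, adjusted p = 0.513) and Ccs with cobalt at 1 month (0.31 ± 0.12, adjusted p = 0.597). The median size of a difference was 0.10 for the 10 genes and 0.12 for all probe sets. All comparisons of 1 month share the same 3 tantalum arrays, so that signs repeated across metals are not separate observations. With that in mind, Slc31a1 was below tantalum in 27 of 31 comparisons, Cox17 in 29 and Atox1 in 25, and Ccs was above it in 27. As a mean over months Slc31a1 was lowest against tantalum with aluminum (-0.18 ± 0.07, adjusted p = 0.171) and lead (-0.17 ± 0.07, adjusted p = 0.152), and none of the 80 means passed, where 0.545% of all probe sets did.

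**Figure D3:**
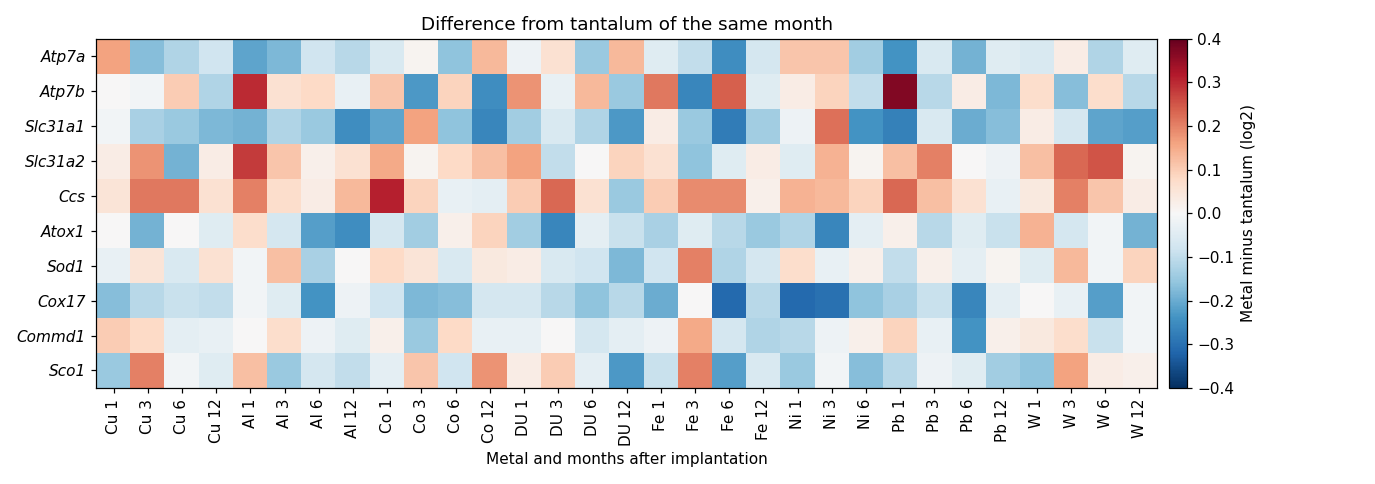
Difference from tantalum of the same month (colour, log2, from -0.4 to 0.4) for the 10 genes (vertical axis) in the 31 groups of metal and month (horizontal axis), copper first. The values run from -0.31 to 0.37 and none passed the test; columns of 1 month share their tantalum arrays.

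Cox17 with nickel was the one value in these comparisons with tantalum that a replicate term brought past the threshold. The nickel arrays read 8.76, 8.77 and 8.68 at 1 month and 8.71, 8.58 and 8.66 at 3 months, below all tantalum arrays, which read 9.22, 8.98 and 8.94 and then 9.04, 8.79 and 9.03. At 6 months they read 8.18, 9.13 and 8.90 beside 8.32, 9.28 and 9.11, with overlap. The differences were -0.31, -0.30 and -0.16, each ± 0.32, and did not pass without the block. With replicate number as a block the SE fell to 0.09 and the 3-month value passed (-0.30, adjusted p = 0.0288), as did the mean over months (-0.26 ± 0.05, adjusted p = 0.000703), where 5.48% and 4.98% of all probe sets passed in that fit. The mean also passed with the 6- and 12-month arrays numbered 1 left out (-0.26 ± 0.06, adjusted p = 0.00423), with 2.33% of all probe sets. At 1 and 3 months the replicate numbers did not pair nickel and tantalum arrays, since same-numbered arrays did not deviate together.

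Other genes of metal handling passed with nickel and cobalt in the same arrays. These are larger differences in other genes, and do not show whether small ones in the 10 genes would be detected. Mt1, a metallothionein, measured 9.89, 11.16 and 9.98 with nickel at 3 months and 7.41, 7.23 and 7.10 with tantalum, and rose by 3.09 ± 0.24 (limma, adjusted p = 3.4e-16). Mt2A read 11.24, 12.13 and 11.34 with nickel and 9.39, 9.64 and 9.84 with tantalum, and rose by 1.95 ± 0.24 (adjusted p = 3.22e-09). The nickel and tantalum arrays were separate for both genes. With cobalt at 3 months Mt1 rose by 1.33 ± 0.24 (adjusted p = 2.69e-05) and Mt2A by 0.83 ± 0.24 (adjusted p = 0.0186). The Mt2A call with cobalt was lost without replicates 2 or 3 of cobalt or 1 or 2 of tantalum, with adjusted p up to 0.125. Mt3, a dim metallothionein, was lower with cobalt at 3 months (4.36 against 4.85, -0.49 ± 0.16, adjusted p = 0.0449). That call was lost without any cobalt replicate or tantalum replicates 1 or 2 (adjusted p up to 0.276). An intensity trend, a second quantile normalization, the same month only or the 2 groups only lost it too. Nickel at 3 months passed for 3.42% of all probe sets and cobalt for 5.46%. Mt1 with nickel at 1 month rose by 1.35 ± 0.24 (adjusted p = 0.000305), although its arrays at 8.18, 9.96 and 9.88 overlapped tantalum at 7.69, 7.72 and 8.54. The call was lost without nickel replicate 3 (1.08, adjusted p = 0.0505). It was also lost with the same month only (adjusted p = 0.0672) or the 2 groups only (adjusted p = 0.464) in the fit. Nickel at 1 month passed for 0.797% of all probe sets. Mt2A was lower with lead than with tantalum at 1 month (-0.82 ± 0.24, adjusted p = 0.0387). The call was lost in 4 of the 6 fits that left out 1 lead or tantalum replicate. Without tantalum replicate 3 the difference was -0.50 (adjusted p = 0.271). The call was also lost with array weights (adjusted p = 0.068) and a second quantile normalization (adjusted p = 0.104). So it was with the same month only (adjusted p = 0.128) and the 2 groups only (adjusted p = 0.23). The lower Mt2A was not particular to lead. The 1-month mean was 10.22 with tantalum, whose replicate 3 read 10.84, and 9.40 with lead. Aluminum was lower still at 9.27, without passing, and every other metal but nickel (11.05) also lay below tantalum.

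With copper itself neither Mt1 nor Mt2A passed. The copper arrays of Mt1 at 1 month read 8.28, 7.78 and 7.44 against 7.69, 7.72 and 8.54, and the differences of Mt1 were -0.15, 0.21, -0.23 and 0.09 in the 4 months, each ± 0.24. Those of Mt2A were -0.34, -0.04, -0.04 and 0.25. In all, 6 lists of 93 related genes, chosen like the 10 with earlier results of these data known, had 84 measured genes, and 0 of the 84 passed in any copper month against tantalum. At an unadjusted p below 0.05 there were 5, 8, 7 and 4 of 84 in the 4 months, beside 7.61%, 10.6%, 6.95% and 5.43% of all probe sets. Their median difference lay between -0.03 and -0.10, while the median of all probe sets lay between 0 and 0.01. Mtf1, the factor that binds metal response elements, was -0.39 ± 0.15 at 3 months (adjusted p = 0.325), and Cp, the secreted copper oxidase ceruloplasmin, was 0.44 ± 0.22 (adjusted p = 0.465). Sod3, the extracellular superoxide dismutase, differed by 0.04, 0.06, -0.13 and 0.20, and Steap4, a metalloreductase, by 0.12, -0.13, -0.22 and 0.09. The copper delivery gene Cox11 gave 0.13, -0.20, -0.14 and -0.24, the mitochondrial carrier Slc25a3 gave -0.07, -0.01, -0.10 and -0.01, and Fdx1, which acts in protein lipoylation, gave -0.04, -0.07, -0.23 and 0.08. Lox and Sco2 were not measured here.

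Other list genes that passed did so with cobalt or nickel, or for copper against the other metals. Txn1 and Glrx, which reduce disulfides, rose by 0.70 ± 0.10 and 0.99 ± 0.20 with cobalt at 3 months. The matrix crosslinking oxidases Loxl1 and Loxl2 rose with nickel at 3 months by 0.76 ± 0.18 and 0.96 ± 0.20, the former call lost without nickel replicate 1 (0.68, adjusted p = 0.0707). Cp rose with cobalt (0.69 ± 0.22) and nickel (0.74 ± 0.22) at 3 months, and the metalloreductase Steap1 rose with nickel (0.69 ± 0.18). The Cp calls were lost without any cobalt replicate, nickel replicates 1 or 2 or tantalum replicates 1 or 2, and the Steap1 call without nickel replicate 2 or tantalum replicate 1, with adjusted p up to 0.29. With the 2 groups only in the fit, the nickel calls were lost too (adjusted p = 0.0793 for Cp and 0.14 for Steap1). Mtf1 was lower with nickel over its months (-0.32 ± 0.09, adjusted p = 0.0233), a call lost without nickel replicates 1 or 2 or tantalum replicates 1 or 3 (adjusted p up to 0.117) and without the 6- and 12-month arrays numbered 1 (-0.27, adjusted p = 0.133). Txn1 was lower with copper than with the mean of the other metals at 3 months (-0.30 ± 0.08, adjusted p = 0.0338), where 0.906% of all probe sets passed. Without cobalt and nickel that difference was -0.12 (adjusted p = 0.751), and the call was also lost without copper replicates 1 or 2, or replicates 2 or 3 of the other metals (adjusted p up to 0.415). The same month only (adjusted p = 0.0623) or a second quantile normalization (adjusted p = 0.0575) lost it too.

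Over the 35 groups the means of the 10 genes spanned 0.31 (Sod1) to 0.81 (Sco1), and such ranges were not computed for all probe sets. A moderated F test over all groups passed for Sco1 (F = 3.65, adjusted p = 1.32e-05) and Slc31a1 (F = 1.93, adjusted p = 0.0267), or 2 of 10, where 39.2% of all probe sets passed. With replicate number as a block 7 of 10 passed, Cox17, Commd1, Atp7a, Atox1 and Ccs in addition, where 53% of all probe sets did. With 1 replicate number left out, the test was lost for Sco1 without number 2 or 3 (adjusted p = 0.0561 and 0.211) and for Slc31a1 without number 1 or 2 (adjusted p = 0.613 and 0.403). Sco1 had the widest range of group means, from 6.71 ± 0.10 (SD, n = 3) with aluminum at 3 months to 7.53 ± 0.11 (SD, n = 3) with cobalt at 12 months. Slc31a1 ran from 7.56 with iron at 3 months to 7.98 with iron at 1 month. Sod1 had the narrowest range, 0.31, from 9.39 with depleted uranium at 12 months to 9.70 with iron at 3 months. The group means of Atp7a spanned 0.45, those of Atp7b 0.55, Slc31a2 0.59, Ccs 0.46, Atox1 0.55, Cox17 0.45 and Commd1 0.47. In the order of the 35 means, no gap between neighbours exceeded the pooled SD of the arrays within groups for any of the 10 genes. That SD was 0.15 (Ccs) to 0.40 (Cox17). With 35 means in such ranges neighbours lie close whether or not groups differ, so the gaps do not show that groups are alike. Sco1 passed the F test without such a gap. Commd1, like Atp7a, had its highest mean with copper at 1 month, 8.74 ± 0.12 (SD, n = 3), next to lead at 1 month with 8.73.

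Months were compared as the mean over metals, with SEs of 0.04 to 0.11, where those of single metals against tantalum were 0.12 to 0.32. At 3 months against 1 month, 1 of 10 passed, where 22.2% of all probe sets did. That count was 5 with replicate number as a block (27.5% of all probe sets), 4 with array weights and 3 with an intensity trend or without the dimmest 30% of probe sets. The share of all probe sets was computed for the block only, so the other counts cannot be set against a background. The 4 genes added by the block were Commd1 and Sco1 (-0.12 each), Atp7a (-0.10) and Cox17 (-0.08). At 6 months 5 of 10 passed against 39.1%, and at 12 months 5 of 10 against 44.1%, shares near those of all probe sets. The same 5 genes passed at 6 and 12 months: Sco1 rose, and Slc31a1, Ccs, Atox1 and Commd1 fell. Of all probe sets, 18.7% rose and 20.4% fell at 6 months, and 23.4% rose and 20.7% fell at 12 months.

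Sco1 had array levels with a median of 7.05 at 1 month (lowest 6.77, highest 7.54), 6.94 at 3 months, 7.34 at 6 months (7.01 to 7.61) and 7.32 at 12 months (6.78 to 7.63). It rose by 0.27 ± 0.05 from 1 to 6 months (adjusted p = 4.3e-06) and by 0.23 ± 0.05 to 12 months (adjusted p = 0.000126). All 9 metals, tantalum included, were higher at 6 months, by 0.08 (aluminum) to 0.46 (tungsten). At 12 months 7 of 8 were higher, and depleted uranium differed by -0.03. The 12-month call was lost without the arrays numbered 2 (0.16, adjusted p = 0.0613) or 3 (0.17, adjusted p = 0.0539). Slc31a1 had medians of 7.85, 7.67, 7.72 and 7.68 in the 4 months, with arrays that overlapped. It fell by 0.18 ± 0.04 at 3 months (adjusted p = 0.00183), 0.16 ± 0.04 at 6 months (adjusted p = 0.00262) and 0.20 ± 0.05 at 12 months (adjusted p = 0.000243). It was lower in 9 of 9 metals at 6 months and in 8 of 8 at 12 months. The 3-month call was lost without the arrays numbered 1 (-0.15, adjusted p = 0.0649) or 2 (-0.16, adjusted p = 0.0551), and the 6-month call without those numbered 1 (-0.11, adjusted p = 0.131).

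Atox1 had medians of 7.29, 7.26, 7.15 and 7.06, and fell by 0.18 ± 0.05 at 6 months and 0.24 ± 0.05 at 12 months (adjusted p = 0.00371 and 0.000149), the 6-month call being lost without the arrays numbered 3 (-0.13, adjusted p = 0.131). Commd1 had medians of 8.64, 8.54, 8.51 and 8.45, and fell by 0.19 ± 0.05 and 0.24 ± 0.05 (adjusted p = 0.000522 and 3.1e-05), in 9 of 9 and then 8 of 8 metals. Ccs fell by 0.15 ± 0.04 and 0.12 ± 0.04 (adjusted p = 0.00158 and 0.015). Without the arrays numbered 1 in all months, Ccs no longer passed at 6 months (-0.07, adjusted p = 0.254) or 12 months (-0.05, adjusted p = 0.467), nor Commd1 at 6 months (-0.06, adjusted p = 0.31). The remaining genes did not pass in this fit: Atp7a differed by 0.01 and -0.10 at 6 and 12 months, Atp7b by 0.04 and 0.12, Slc31a2 by 0.02 and 0.04, Sod1 by -0.04 and 0.03, and Cox17 by -0.22 and -0.23. With replicate number as a block, Cox17 passed in both months (-0.22 ± 0.03 and -0.23 ± 0.03, adjusted p = 7.15e-09 and 8.36e-09). Atp7a passed at 12 months (-0.10 ± 0.03, adjusted p = 0.0127). In that fit 43% of all probe sets passed at 6 months and 47.8% at 12 months. The block takes replicate number out of the spread but keeps the arrays numbered 1 in the month means. The Cox17 calls therefore cannot be read as a fall with time. Without the 6- and 12-month arrays numbered 1, Cox17 at 6 months was 0.12 ± 0.03, the other sign. Copper alone gave Atp7a -0.39 from 1 to 12 months, the lowest of the 8 metals, beside -0.15 in tantalum. That value starts from the highest of all group means and was not tested by itself. The test of change in the copper difference between months did not pass for Atp7a (moderated F = 1.26, adjusted p = 0.912).

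Markers of other cells also differed between these months, beside 20.7% of all probe sets that fell and 23.4% that rose at 12 months. Of 8 fibroblast and matrix markers, 8 fell at 12 months against 1 month, with a median of -1.48. Their summed intensity per array was 10400 to 28400 at 1 month and 4980 to 9140 at 12 months. All 6 endothelial markers fell, with a median of -0.48 and sums of 2310 to 3250 at 1 month and 1510 to 2270 at 12 months. Of 12 macrophage markers, 9 fell with a median of -0.35, and the sums were 1910 to 5910 and 1540 to 3040. Of 11 muscle fibre markers, 3 fell and 1 rose. The part of these cells in the month results was not tested, and months cannot be told apart from age.

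Among the related genes at 12 months, counts are to be read against the 23.4% of all probe sets that rose and the 20.7% that fell. The list of copper uptake, reduction and buffering had 3 of 18 higher and 7 lower, with Steap4 falling by 0.66 ± 0.06 and Steap3 by 0.34 ± 0.03. Of the secreted and membrane copper enzymes 6 of 13 were lower, led by Loxl2 (-1.22 ± 0.07) and the amine oxidase Aoc3 (-0.51 ± 0.05). The list for mitochondrial copper delivery and oxidase assembly had 2 of 13 higher and 2 lower: the assembly factor Cox16 rose by 0.47 ± 0.05 and Slc25a3, which carries copper and phosphate into mitochondria, fell by 0.30 ± 0.04. Of the complex that Commd1 belongs to, 4 of 14 fell, among them Commd7 (-0.20 ± 0.05, lost without the arrays numbered 1 or 3) and Commd6 (-0.17 ± 0.04). Among antioxidant enzymes without copper 2 of 14 rose and 8 fell, with Glrx at -0.70 ± 0.07 and Txn2 at -0.42 ± 0.05. Of the lipoylation genes 3 of 12 rose and 2 fell, with Dbt at 0.19 ± 0.04 and Dlst at -0.15 ± 0.03.

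Replicate number 1 at 6 and 12 months carried the largest contrast seen in these genes. Its test was added after the arrays had been seen, and compares the 17 arrays numbered 1 of those months with the 34 numbered 2 or 3. Cox17 ran from 7.75 to 8.32 with a median of 8.13 in the 17 arrays, and from 8.83 to 9.28 with a median of 9.07 in the 34. The arrays did not overlap, and the difference of -0.95 ± 0.03 (limma, adjusted p = 1.77e-35) was the second lowest of 22954 probe sets. Sod1 did not overlap either, at 9.00 to 9.35 against 9.54 to 9.92, and was lower by -0.47 ± 0.03 (adjusted p = 8.87e-22). Such a separation was found for 0.309% of all probe sets. Commd1 was lower by -0.34 ± 0.03, at 8.06 to 8.32 against 8.25 to 8.91, with a small overlap. Sco1 (-0.23), Atox1 (-0.19), Slc31a2 (-0.19), Ccs (-0.17) and Slc31a1 (-0.12) were lower as well, Atp7a was higher (0.15 ± 0.04), and Atp7b did not pass (0.06 ± 0.06). In all, 8 of 10 were lower and 1 higher, where 13.7% of all probe sets were lower and 16.2% higher.

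**Figure D4:**
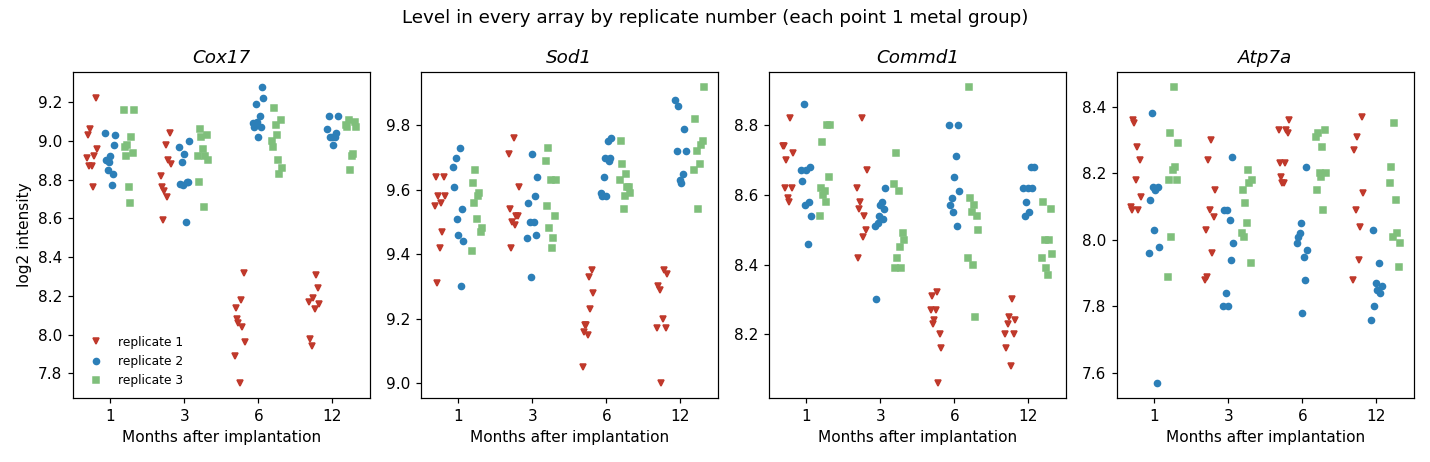
Log2 intensity of Cox17, Sod1, Commd1 and Atp7a (vertical axes, a different range for each gene) on every array, by month and replicate number; each point is 1 group of metal and month. The replicate 1 arrays of Cox17 and Sod1 lie below all others at 6 and 12 months and among them at 1 and 3 months.

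For Cox17 the contrast held at 6 months (-1.02 ± 0.05) and at 12 months (-0.89 ± 0.05) when each was taken alone. Of the genes counted above, Slc31a1 and Slc31a2 passed in neither month alone. Atox1 did not pass at 6 months alone (limma, adjusted p = 0.0685). At 1 and 3 months the same contrast gave -0.02 ± 0.03 for Cox17 and 0.00 ± 0.03 for Sod1, and 0 of 22954 probe sets passed. In the lists at 6 and 12 months, 7 of 13 genes of mitochondrial copper delivery were lower and 3 higher, and 8 of 14 antioxidant enzymes were lower and 1 higher. In the complex of Commd1 7 of 14 were lower, and among lipoylation genes 7 of 12, with none higher in either. The list of copper uptake, reduction and buffering did not lean lower, with 4 of 18 lower and 4 higher. Nor did the secreted and membrane copper enzymes, with 1 of 13 lower and 3 higher. Of all probe sets, 13.7% were lower and 16.2% higher. Markers of fibroblasts (0 of 8) and leukocytes (0 of 8) did not pass in either direction, and 3 of 6 endothelial markers were higher. Among all named genes, Rpl12 (-0.85) and Akip1 (-0.80) came next to Cox17 at the low end. The mean over arrays of the control probe sets' median was 3.96 in the 17 arrays and 4.12 in the 34. Its part in these differences was not tested.

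The month results changed when those 17 arrays were left out. At 6 months 3 of 10 then rose and 0 fell, where 16.4% of all probe sets rose and 19.2% fell, and at 12 months 2 rose and 4 fell, where 19.5% rose and 19% fell. Sco1 passed at 6 months (0.34 ± 0.05, adjusted p = 1.04e-08) and at 12 months (0.31 ± 0.05, adjusted p = 3.04e-07). Sod1 now rose, by 0.11 ± 0.03 at 6 months and 0.20 ± 0.03 at 12 months (adjusted p = 0.00708 and 2.94e-06). Cox17 turned from -0.22 to 0.12 ± 0.03 at 6 months (adjusted p = 0.00404) and read 0.07 at 12 months (adjusted p = 0.135). Slc31a1 (-0.12, adjusted p = 0.0514), Ccs (-0.10, adjusted p = 0.0615), Atox1 (-0.12, adjusted p = 0.0682) and Commd1 (-0.07, adjusted p = 0.114) no longer passed at 6 months. At 12 months Slc31a1 (-0.16), Atox1 (-0.17) and Commd1 (-0.14) still passed, Atp7a now did (-0.15, adjusted p = 0.0155), and Ccs did not (-0.07, adjusted p = 0.201).

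**Figure D5:**
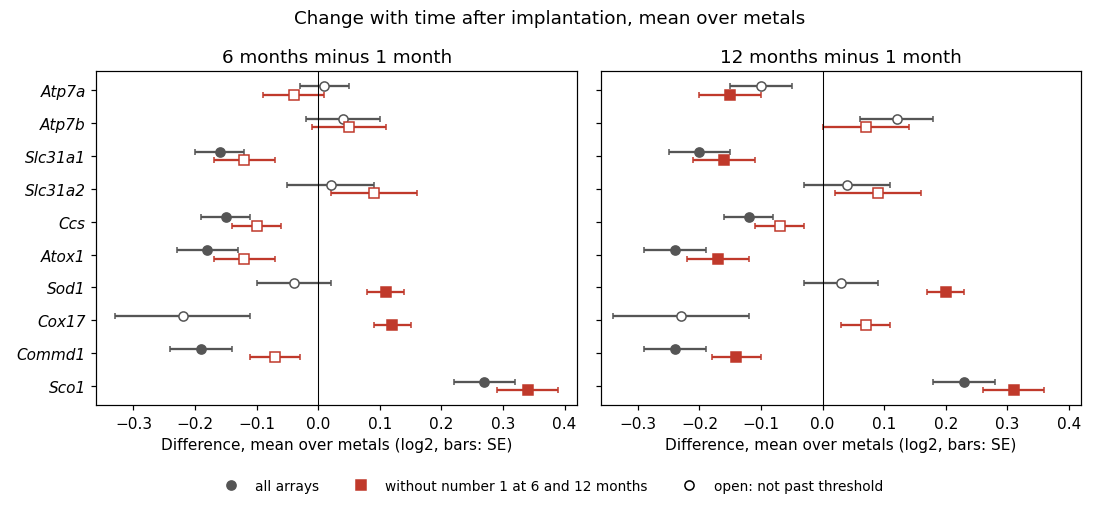
Difference from 1 month (horizontal axis, log2, mean over metals, bars are SE) for each gene at 6 and 12 months, with all arrays (grey circles) and without the arrays numbered 1 at 6 and 12 months (red squares); filled symbols passed the test. Sco1 stays to the right of 0 in both panels, and Cox17 moves from left to right of 0.

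Within groups, arrays that were low in one of 3 genes were low in the others: Sod1 and Cox17 had a Pearson correlation of 0.89 over 105 arrays after removal of group means, Sod1 and Commd1 0.82, and Cox17 and Commd1 0.80. Without the 17 arrays, over 88, these were 0.70, 0.62 and 0.54. Atp7a went the other way, at -0.40 with Cox17 (-0.24 without the 17 arrays). The points share arrays and their normalization, and no test was made.

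The genes most like each of the 10 over the 35 group means, of 14842 compared, were taken by Pearson correlation as a description. Sco1 was closest to Mcfd2 (0.91) and Atp6v1e1 (0.89), Cox17 to Polr2l (0.89) and Lrrc20 (0.88), and Atox1 to Tp53inp2 (0.86) and Mknk2 (0.85). Commd1 was closest to Ndufs8 (0.85) and Arf5 (0.83), and Slc31a1 to Septin2 (0.84) and Mfsd14b (0.80). Atp7b was closest to Prl8a9 (0.78) and Smim17 (0.74), Atp7a to Vps35l and Adam10 (0.75 each), and Slc31a2 to Pgrmc2 (0.75) and Pdcl (0.67). Ccs was closest to Csrp2 (0.73) and Cldn5 (0.72), and Sod1 to Stk11 (0.61) and Slc25a42 (0.60). The 35 means share months and replicate numbers across metals.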

How the data were processed

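The authors' deposited values are log2 intensities made by RMA (robust multi-array averaging) in oligo, run with R 4.0.1, per the submitters' processing notes. The sources used here do not say if RMA was run on all arrays together. Of 22977 probe sets, 23 controls were left out and 22954 tested, with no filter on dim ones. Gene symbols came by gene ID from a RefSeq table (GRCr8): 14855 probe sets had 1 symbol and 8099 none.

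All 105 arrays entered one limma 3.58.1 fit of group means in R 4.3.3 (70 residual and 7.25 prior degrees of freedom). Tests were two-sided with Benjamini-Hochberg adjustment over all probe sets of a comparison. The comparisons were each metal with tantalum by month (31) and over months (8), copper with the other metals, changes between months, and any difference among groups. Scripts were tested on simulated data. The number of arrays limits the precision.

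The 10 genes, the related lists and the markers were chosen with earlier results of these data known. Named related genes are those that passed for copper, the 2 smallest adjusted p per list elsewhere, of which the text gives a part, and a fixed set. Mt3 and Steap1 were named outside this rule. App met it with cobalt at 3 months (0.46 ± 0.11, limma, adjusted p = 0.00218) and was not described above. That App call was lost without cobalt replicate 3 (adjusted p = 0.104) or with the 2 groups only in the fit (adjusted p = 0.13). Same-numbered metal and tantalum arrays deviated together (every correlation over 0.1) for 8 of 8 metals at 6 months, 5 of 7 at 12 months and none at 1 or 3 months. Alternatives were a replicate block, a second quantile normalization, an intensity trend, array weights, a filter on the dimmest 30%, fewer groups in the fit and leaving out replicates. Leaving out cobalt and nickel, or the 6- and 12-month arrays numbered 1, and the test of replicate number were chosen after seeing the data.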

Additional observations from a re-analysis of the deposited data

How the results depend on the processing

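The 40 differences of the 10 genes between copper and tantalum were recomputed 580 times under the alternatives: 0 passed, 50 had the opposite sign to the value reported, and they ran from -0.38 to 0.34. Of 3640 recomputed values for the other metals, 1 passed, Cox17 with nickel at 3 months under the replicate block. Counts of genes that passed were compared 716 times, and 702 stayed the same or within 1.5 times. Every count against tantalum or the other metals was 0 in the reported fit, so that much of this sets 0 against 0. A count can also stay alike while its genes change. At 12 months without the 6- and 12-month arrays numbered 1, Ccs dropped out and Sod1 and Atp7a came in. Of the counts that moved, the test over all groups (2 genes) gave 7 with the replicate block, 1 with a second quantile normalization and 0 to 2 with each replicate number left out. Nickel over its months and nickel at 3 months (0 each) gave 1 with the replicate block, and the former also 1 without the 6- and 12-month arrays numbered 1. Months 3 against 1 (1 gene) gave 5 with the replicate block, 4 with array weights, 3 with the intensity trend, 3 without the dimmest 30% of probe sets, 2 with a second quantile normalization and 0 to 1 with each replicate number left out. Months 6 against 1 (5 genes) gave 3 without the 6- and 12-month arrays numbered 1. The block changed no other count of these by over 1.5 times. Shares of all probe sets were computed for the block and for the fit without the 6- and 12-month arrays numbered 1. Counts under the other alternatives cannot be set against a background. Without replicate 1 in all months, the 6-month differences of Cox17 and Sod1 turned to 0.13 and 0.10 (ranges over the omitted numbers from -0.44 and -0.12), and without the 6- and 12-month arrays numbered 1 to 0.12 and 0.11. The lower Slc31a2 in arrays numbered 1 lost its call with array weights (adjusted p = 0.0552) and without cobalt and nickel (adjusted p = 0.166). The cause was not tested. Each symbol had 1 probe set, so using all probe sets of a symbol changes nothing. Precision is limited by 3 pools a group, and 17 of the arrays share a number whose meaning is not given in the sources used here.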
